A study of Mus musculus with 37 samples.

Results

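Wild-type mice with chronic colitis were compared with the wild-type controls of the chronic protocol, over all genes measured in colon. The array titles mark 5 arrays as wild-type chronic DSS and 5 as wild-type chronic control, and these 10 arrays, of 37 in the series, are the samples described here. Both groups were C57BL/6J mice with no engineered allele. DSS (dextran sodium sulphate), a sulphated polysaccharide taken up by mouth, injures the colonic epithelium. Further pairs of groups of the series are used for comparison: wild-type mice on acute DSS (5 arrays) against their acute controls (3 arrays), and B6.129S4-Timp1tm1Pds/J mice, which carry a targeted Timp1 allele, on chronic DSS (5 arrays) against their chronic controls (5 arrays). Dose, number of cycles, age and the day of sampling were not given in the sources used here. RNA came from snap frozen colon and was read on Affymetrix Mouse Gene 1.0 ST arrays, 1 animal per array. In such bulk samples, more cells of a type and more RNA per cell cannot be told apart.

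The animal numbers in the titles fall into series. All 5 DSS mice and controls 1 to 3 belong to series 11, and controls 4 and 5 belong to series 14, so the comparison was also made within series 11 alone. What a series stands for was not given in the sources used here.

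The colonic mucosa is a single layer of absorptive colonocytes, goblet cells and a few endocrine and tuft cells, renewed from stem cells at the crypt base and lying on a lamina propria rich in plasma cells and T cells. Injury by DSS opens this barrier to bacteria. The epithelium answers with antimicrobial lectins and oxidases, neutrophils and monocytes enter, and repeated rounds leave time for lymphocytes, plasma cells and mast cells to build up and for the epithelium to regrow in an altered state. Those stages are background knowledge of the model and not results of these arrays.

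Of 19938 genes, 1154 rose and 1710 fell in chronic DSS (limma, adjusted p under 0.05), which is 5.79% and 8.58% of all genes tested. At least 2-fold changes numbered 191 upward and 134 downward. All 5 DSS arrays lay above all 5 controls in 1243 genes (6.23% of all genes) and below all of them in 1746 (8.76%). Signals correlated at 0.977 or more among the DSS arrays, at 0.989 or more among the controls, and at 0.964 to 0.982 between the groups, so the DSS mice varied more among themselves than the controls did. Colon markers were present on all arrays: Car1, the colonocyte carbonic anhydrase, lay at 13.11 to 14.24 in DSS and 13.76 to 13.89 in controls, on the log2 signal scale used throughout. Muc2, the main secreted mucin of goblet cells, lay at 13.92 to 14.31 in DSS and 13.63 to 14.00 in controls. Within series 11 alone, 1182 genes passed upward and 1908 downward. Of the calls in the limma fit of all 37 arrays, 70.4% of the upward and 79.8% of the downward ones passed again. All 2864 kept their sign, but this subset holds all 5 DSS arrays and 3 of the 5 controls, so the signs are no independent check. The fit of all groups without the series 14 controls gave 777 upward and 1473 downward calls. It shared 62.7% of the upward and 74.6% of the downward calls. Of 93 named genes that passed in the fit of all 37 arrays, 13 did not pass within series 11: Chac1, Col1a1, Cxcl9, Cxcr2, Hoxb13, Hp, Insl5, Lcn2, Lox, Mir194-2, Mmp13, S100a8 and Timp1, with adjusted p of 0.0501 to 0.108. Without the series 14 controls, 17 of the 93 did not pass. Against the 2 series 14 controls only, a setting chosen after seeing the data, 17.5% of the upward and 18.9% of the downward calls passed again. There 56 of the 93 did not pass, in a fit with fewer arrays.

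**Figure D1:**
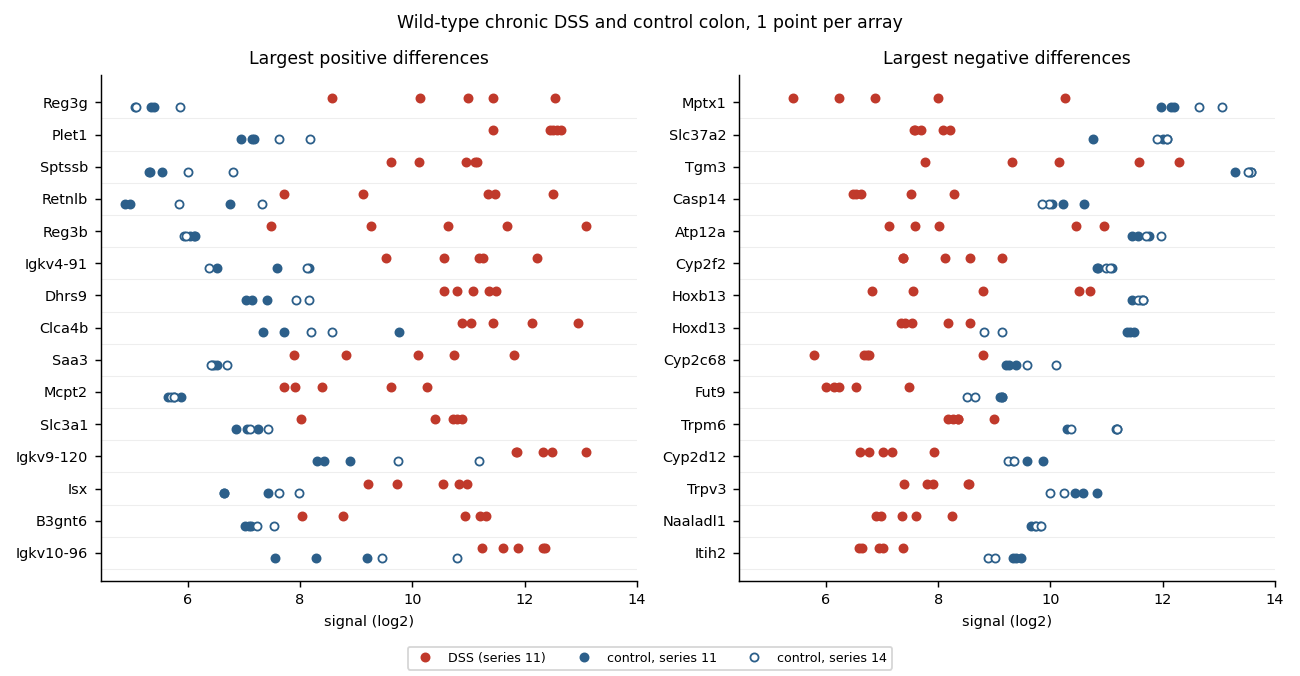
Signal (log2, x axis) of the 15 genes with the largest positive and the 15 with the largest negative differences among named genes that passed (clone-derived symbols left out), 1 point per array; red DSS, filled blue controls of series 11, open blue controls of series 14. In each of these 30 genes the 5 DSS arrays lie on one side of all 5 controls, but in many the nearest arrays are less than 2 log2 units apart. Hoxd13 comes close, with a DSS array at 8.56 and a control at 8.81. Reg3b and Retnlb in DSS array 4 (7.48 and 7.72) also come within 2 log2 units of the nearest control. So do DSS arrays of B3gnt6, Slc3a1, Atp12a, Tgm3, Hoxb13 and further genes.

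Reg3g, an antimicrobial protein secreted by the epithelium, gave the largest increase of all named genes, and Retnlb and Reg3b were also among the 15 largest. Reg3g is a C-type lectin that kills Gram-positive bacteria. It had 11.00, 11.44, 10.13, 8.57 and 12.54 in DSS arrays 1 to 5, against 5.34, 5.40, 5.06, 5.87 and 5.08 in controls 1 to 5. The groups did not overlap, and DSS array 4 was the lowest of its group. Reg3g rose by 5.38 ± 0.95 (log2 difference ± SE, 41.8-fold, adjusted p = 0.000192, n = 5 each). Its neighbour Reg3b, a related lectin, had 10.63, 11.69, 9.26, 7.48 and 13.09 in DSS, against 5.94 to 6.13 in controls, and rose by 4.39 ± 1.08 (adjusted p = 0.00555). Retnlb, the resistin-like protein of goblet cells, had 11.35, 12.51, 9.13, 7.72 and 11.48 in DSS, against 4.89, 4.97, 6.75, 7.33 and 5.85 in controls, and rose by 4.48 ± 0.77 (adjusted p = 0.000151). DSS array 4 was lowest and DSS array 3 second lowest for all 3 of these genes. Wfdc18, a small secreted protein with a whey acidic protein domain, went the other way among the mice: it was highest in DSS array 3 (11.73) and lay at 9.10 to 10.40 in the other DSS arrays, against 7.87 to 8.51 in controls (2.03 ± 0.44, adjusted p = 0.00168). Of 20 measured antimicrobial lectins and peptides, 5 rose, 1 fell and 14 did not pass, with a list median of 0.24. The shares that rose and fell were 25.0% and 5%, against 5.79% and 8.58% of all genes. The one that fell was Wfdc2, another protein of the same domain family, at 8.30 to 9.43 in DSS and 10.69 to 10.87 in controls (-1.92 ± 0.29, adjusted p = 3.69e-05).

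Reg3g and Reg3b are close copies on chromosome 6, and the bases before their annotated starts are shown because these genes moved together across the DSS mice. The sequences are RefSeq promoter windows of build GRCm38.p6, the 250 bases before the start, 5′ to 3′ on the gene's strand. Capitals mark matches to TATAAA and to TTCNNNGAA, searched on both strands.
Reg3g, chr6:78468875-78469124, minus strand: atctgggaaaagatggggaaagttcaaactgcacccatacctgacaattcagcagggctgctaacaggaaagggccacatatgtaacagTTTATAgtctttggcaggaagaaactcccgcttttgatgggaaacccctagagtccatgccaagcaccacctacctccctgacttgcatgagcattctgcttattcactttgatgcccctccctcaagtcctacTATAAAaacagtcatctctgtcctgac
Reg3b, chr6:78370635-78370884, plus strand: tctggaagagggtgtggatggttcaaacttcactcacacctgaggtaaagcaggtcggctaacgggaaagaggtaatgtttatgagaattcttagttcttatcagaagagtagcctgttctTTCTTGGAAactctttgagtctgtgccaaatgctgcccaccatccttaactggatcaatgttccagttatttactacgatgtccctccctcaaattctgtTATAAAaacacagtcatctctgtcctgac
In a global alignment these windows were identical at 68.9% of columns, and at 73.8% over the last 100 bases. A TATAAA begins 27 bases before the start in Reg3g and 29 bases before it in Reg3b, a motif held by 12.4% of 32851 windows of this length. Reg3b also holds a TTCNNNGAA 129 bases before its start, a spacing found in 7.02% of windows, and the Reg3g window has none. A match describes the letters only. The transcripts of these copies are alike as well, and whether the arrays' probes keep them apart was not tested.

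Among epithelial genes for making hydrogen peroxide and nitric oxide, Duox2, Duoxa2 and Nos2 were higher in every DSS mouse than in any control. Duox1 passed but overlapped with the controls (0.24 ± 0.08, adjusted p = 0.0382). Duoxa1, Nox1, Noxo1 and Noxa1 overlapped too and did not pass. Duox2, the dual oxidase of the gut surface, had 11.85, 11.76, 11.75, 11.50 and 11.97 in DSS, against 10.01, 10.16, 10.60, 9.78 and 10.22 in controls (1.61 ± 0.26, adjusted p = 8.97e-05). Duoxa2, the factor that brings Duox2 to the membrane, had 11.46, 11.36, 11.34, 11.21 and 11.26 in DSS, against 9.43, 9.50, 9.90, 9.09 and 9.55 in controls (1.83 ± 0.30, adjusted p = 8.92e-05). Among the 5 DSS mice Duox2 and Duoxa2 each spanned under 0.5 log2 units, while Reg3g spanned nearly 4. Nos2, the inducible nitric oxide synthase, had 10.17, 9.33, 10.81, 9.39 and 9.67 in DSS, against 6.89 to 7.19 in controls (2.80 ± 0.53, 6.96-fold, adjusted p = 0.000416). Of 15 oxidases, nitric oxide and eicosanoid enzymes, 5 rose and 1 fell, against 3 and 0 without DSS array 1 or without the series 14 controls.
Duox2 and Duoxa2 face away from each other on chromosome 2 with starts 673 bases apart, so their windows are shown as the outer parts of a shared stretch.
Duoxa2, chr2:122298650-122298899, plus strand: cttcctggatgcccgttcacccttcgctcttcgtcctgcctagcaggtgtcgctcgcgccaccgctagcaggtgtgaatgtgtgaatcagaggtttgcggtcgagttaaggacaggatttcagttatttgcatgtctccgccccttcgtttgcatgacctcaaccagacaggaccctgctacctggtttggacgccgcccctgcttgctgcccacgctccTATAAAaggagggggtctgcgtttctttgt
Duox2, chr2:122298228-122298477, minus strand: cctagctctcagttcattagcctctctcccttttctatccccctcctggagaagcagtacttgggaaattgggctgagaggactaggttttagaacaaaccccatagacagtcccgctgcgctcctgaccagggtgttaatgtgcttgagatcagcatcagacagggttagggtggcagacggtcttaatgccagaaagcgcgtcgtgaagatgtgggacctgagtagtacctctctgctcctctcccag
Duoxa2 has a TATAAA 30 bases before its start and Duox2 has neither motif in this window.

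Several of the 15 largest increases were in genes of epithelial cells, described next one by one. Plet1, a surface protein of epithelial progenitors, had 12.58, 12.50, 12.46, 11.44 and 12.64 in DSS, against 7.19, 7.14, 6.95, 8.18 and 7.62 in controls, and rose by 4.91 ± 0.52 (30.0-fold, adjusted p = 2.58e-07). Sptssb, a small subunit of the enzyme that starts sphingolipid synthesis, had 11.15, 11.12, 9.62, 10.12 and 10.95 in DSS, against 5.32, 5.33, 5.54, 6.80 and 6.01 in controls (4.79 ± 0.67, adjusted p = 1.19e-05). For both genes the nearest control to the DSS arrays was control 4, of series 14, and it lay well below the lowest DSS array. Dhrs9, a dehydrogenase that acts on retinol and steroids, lay at 10.57 to 11.49 in DSS and 7.04 to 8.16 in controls (3.52 ± 0.45, adjusted p = 3.1e-06). Isx, the intestine-specific homeobox factor, lay at 9.22 to 10.97 in DSS and 6.65 to 7.99 in controls (2.99 ± 0.59, adjusted p = 0.000701). Clca4b, of the family of chloride channel regulators, lay at 10.88 to 12.96 in DSS and 7.35 to 9.77 in controls (3.38 ± 0.55, adjusted p = 8.39e-05).

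Some epithelial genes split the DSS mice. Slc3a1, a subunit of the cystine transporter, had 10.80, 10.72, 8.02, 10.40 and 10.89 in DSS, against 6.87 to 7.43 in controls (3.02 ± 0.66, adjusted p = 0.00176). B3gnt6, which builds core 3 O-glycans on mucins, had 11.20, 10.94, 8.03, 8.77 and 11.32 in DSS, against 7.02 to 7.54 in controls (2.85 ± 0.70, adjusted p = 0.00513). Alpi, the intestinal alkaline phosphatase, had 10.89, 10.61, 7.55, 9.09 and 10.55 in DSS, against 6.96 to 7.52 in controls (2.55 ± 0.66, adjusted p = 0.00838). DSS array 3 was the lowest DSS array for all 3 genes and lay just above the highest control. In Cyp2c65 DSS array 3 was again the lowest and lay below every control, with 10.82, 11.25, 6.76, 9.66 and 11.62 in DSS, against 6.79 to 7.15 in controls, and did not pass (3.13 ± 1.11, adjusted p = 0.0549).

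Of 17 genes known from fetal-like and wound-edge epithelium, 5 rose (29.4%, against 5.79% of all genes) and 0 fell, with a median of 0.28. Sprr1a, a small proline-rich protein of stressed epithelium, had 11.35, 10.59, 10.27, 10.64 and 11.15 in DSS, against 8.21 to 8.84 in controls (2.24 ± 0.29, 4.73-fold, adjusted p = 3.53e-06). Itga2, the collagen-binding integrin α2 subunit, lay at 10.55 to 11.12 in DSS and 9.23 to 9.63 in controls (1.39 ± 0.20, adjusted p = 1.55e-05). Cldn4, a claudin, lay at 11.18 to 11.82 in DSS and 9.93 to 10.56 in controls (1.05 ± 0.20, adjusted p = 0.000416). Clu, another member of the list, was 11.62 in DSS array 3 and 10.01 to 10.24 in the other DSS arrays, against 9.07 to 10.22 in controls, and did not pass (0.70 ± 0.36, adjusted p = 0.206). Cd177, best known as a neutrophil surface protein, was 11.68, 11.59, 12.26, 11.73 and 12.06 in DSS, against 9.60 to 9.76 in controls (2.20 ± 0.30, adjusted p = 8.15e-06). Its 5 DSS values lay within 1 log2 unit of each other, and those of the neutrophil markers given further on did not.

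Some transcripts of the mature colonic surface fell, and those with large falls are given first. Mptx1, a mucosal pentraxin, had 5.41, 10.26, 6.87, 6.24 and 8.00 in DSS, against 11.97, 12.15, 12.20, 13.05 and 12.65 in controls, and fell by 5.04 ± 0.92 on the log2 scale (33.0-fold lower, adjusted p = 0.000277). The DSS mice spanned nearly 5 log2 units, with DSS array 2 closest to the controls. Slc37a2, a sugar phosphate transporter, had 7.57, 7.59, 8.09, 8.21 and 7.70 in DSS, against 12.08, 12.01, 10.76, 12.07 and 11.89 in controls (-3.93 ± 0.52, 15.3-fold lower, adjusted p = 5.42e-06). Here the DSS mice were tightly grouped and control 3 was the low one of its group. Casp14, a caspase of terminally differentiating epithelium, lay at 6.49 to 8.28 in DSS and 9.85 to 10.60 in controls (-3.05 ± 0.43, adjusted p = 1.11e-05). Trpm6, the magnesium channel of the colon, lay at 8.17 to 9.0 in DSS and 10.30 to 11.19 in controls (-2.41 ± 0.31, adjusted p = 2.97e-06). Itih2, a heavy chain of the inter-alpha-trypsin inhibitor family, lay at 6.59 to 7.38 in DSS and 8.88 to 9.47 in controls, and its adjusted p of 5.13e-09 (-2.30 ± 0.20) was the lowest among the 30 genes plotted.

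Other surface genes fell in 3 of the DSS mice far more than in the remaining ones. Tgm3, a transglutaminase, had 9.32, 7.77, 11.58, 12.28 and 10.16 in DSS, against 13.57, 13.53, 13.29, 13.57 and 13.52 in controls (-3.28 ± 0.91, adjusted p = 0.0137, and 0.055 without DSS array 2). Atp12a, the colonic proton-potassium pump, had 7.58, 7.13, 10.46, 10.95 and 8.01 in DSS, against 11.45 to 11.97 in controls (-2.86 ± 0.80, adjusted p = 0.014). DSS arrays 3 and 4 stayed within about 2 log2 units of the controls for both genes. These arrays were also nearest the controls for Hoxb13, a gene of the distal colon given further on. Whether the site sampled had a part in this split was not tested. Best2, a bestrophin of goblet cells in the colon, showed the same arrays nearest the controls, with 8.27, 7.31, 9.49, 9.31 and 8.36 in DSS, against 10.05 to 10.51 (-1.73 ± 0.49, adjusted p = 0.016, and 0.0604 without DSS array 2). Among 16 enteroendocrine markers, 1 rose and 1 fell, with a median of -0.08. That is 6.25% each way, near the 5.79% and 8.58% of all genes, so the list as a whole did not stand out. The one that fell, the hormone Insl5, had 8.32, 7.80, 10.08, 10.38 and 9.06 in DSS, against 10.50 to 11.45 in controls (-1.78 ± 0.57, adjusted p = 0.0315). The Insl5 call ended without any 1 of DSS arrays 1, 2 and 5 or controls 4 and 5, with an adjusted p of up to 0.103. The one that rose, the hormone Cck, had 8.18, 8.01, 7.46, 8.16 and 7.94 in DSS, against 6.96 to 7.16 in controls (0.89 ± 0.17, adjusted p = 0.000437).

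Over 34 colonocyte and ion transport genes, 8 fell (23.5%, against 8.58% of all genes) and 3 rose (8.82%, against 5.79%), Fabp2 among the latter. The other 23 did not pass, and the list median was -0.41. Series 11 alone gave 12 lower and 7 higher, and only 1 was higher without DSS array 1. The phosphate carrier Slc20a1 fell (9.80 to 10.84 in DSS, 11.47 to 12.68 in controls, -2.16 ± 0.27, adjusted p = 2.9e-06), as did the peptide transporter Slc15a1 (9.43 to 10.66 in DSS, 11.84 to 12.29 in controls, -2.15 ± 0.62, adjusted p = 0.0173). The anion exchanger Slc26a3 lay at 11.22 to 12.51 in DSS, below 12.74 to 13.10 in controls, without passing (-0.84 ± 0.49, adjusted p = 0.279). The water channel Aqp8 overlapped, at 11.11 to 12.45 in DSS and 12.17 to 12.57 in controls (-0.53 ± 0.60, adjusted p = 0.643). Of 41 cytochrome P450 and detoxification genes, 8 fell (19.5%) and 1 rose (2.44%), and in series 11 alone 13 fell and 6 rose. Cyp2f2 lay at 7.37 to 9.13 in DSS and 10.82 to 11.10 in controls (-2.85 ± 0.39, adjusted p = 8.15e-06), and Cyp2d12 at 6.61 to 7.93 in DSS and 9.25 to 9.86 in controls (-2.38 ± 0.46, adjusted p = 0.000507). Goblet cell markers as a list showed no common direction (3 of 18 higher, 1 lower, median 0.02; 7 and 1 in series 11 alone), and Tff3, the goblet trefoil peptide, lay at 13.17 to 13.31 in DSS and 13.26 to 13.37 in controls (adjusted p = 0.892). At the crypt base, Lgr5, the stem cell receptor for R-spondins, had 8.52, 7.68, 8.36, 6.97 and 7.43 in DSS, against 8.85 to 9.50 in controls (-1.29 ± 0.27, adjusted p = 0.00141). Lgr5 belongs to a list of 17 stem cell and Wnt-responsive genes, 5 of which fell (29.4%) and 2 of which rose (11.8%). Those that rose were Prom1 (10.93 to 11.62 in DSS, 9.26 to 10.30 in controls, 1.55 ± 0.30, adjusted p = 0.000649) and Cd44 (9.91 to 10.66 in DSS, 9.21 to 9.58 in controls, 1.03 ± 0.20, adjusted p = 0.000685). None of 23 cell cycle genes passed (limma, 0 of 23), and Mki67 lay at 10.14 to 10.91 in DSS and 10.59 to 10.91 in controls.

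Genes whose level depends on position along the colon have to be read by animal series. Hox genes of the posterior end mark the distal colon, whereas Cdx2 and Fabp2, the intestinal fatty acid binding protein, are higher proximally. Hoxb13 had 7.56, 6.83, 10.70, 10.51 and 8.80 in DSS, against 11.45 to 11.65 in controls of both series (-2.70 ± 0.78, adjusted p = 0.017). Its call ended without DSS array 1 or DSS array 2, with an adjusted p of up to 0.0647, and series 11 alone gave -2.69 with an adjusted p of 0.051. Hoxd13 had 7.41, 7.33, 8.18, 8.56 and 7.54 in DSS, against 11.37, 11.42 and 11.48 in controls of series 11 and only 8.81 and 9.13 in controls of series 14. Hoxd10 had 7.54 to 7.92 in DSS, against 10.26 to 10.37 in series 11 controls and 8.14 and 8.27 in series 14 controls. The fall of Hoxd13 (-2.64 ± 0.49, adjusted p = 0.000362) and of Hoxd10 (-1.70 ± 0.39, adjusted p = 0.00271) against all 5 controls therefore moved with the series of the controls.

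**Figure D2:**
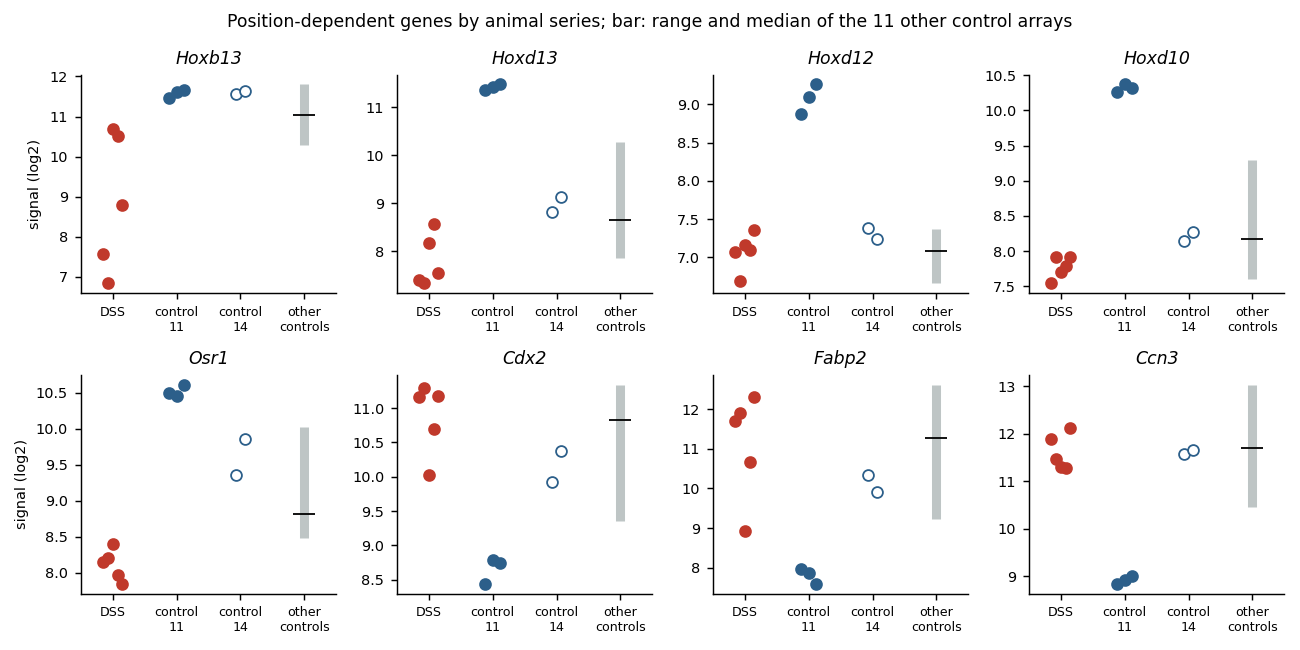
Signal (log2) of 8 position-dependent genes in the 5 DSS arrays, in the 3 series 11 controls, in the 2 series 14 controls and, as a grey bar from lowest to highest with the median marked, in the 11 acute and knockout control arrays. Hoxd13, Hoxd12, Hoxd10, Osr1, Cdx2, Fabp2 and Ccn3 set the series 11 controls apart, and Hoxb13 does not.

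The series 11 controls also stood outside the other controls of the study. Hoxd12 lay at 8.87 to 9.26 in them, against 7.24 and 7.38 in the series 14 wild-type controls and 6.66 to 7.37 in the 11 acute and knockout control arrays. Fabp2 lay at 7.60 to 7.96 in them, against 9.90 and 10.34 and a range of 9.24 to 12.61 in those 11 arrays. Ccn3, a matricellular protein, lay at 8.84 to 9.0, against 11.58 and 11.65 and 10.45 to 13.03. Set against the 2 series 14 controls only, DSS minus control was -1.16 for Hoxd13, -0.43 for Hoxd10, -0.23 for Hoxd12, 0.73 for Cdx2, 0.98 for Fabp2 and -0.0025 for Ccn3, and none of these 6 passed. The calls of Fabp2 and Ccn3 against all 5 controls (adjusted p = 0.0414 and 0.0368) each ended without any 1 of 7 arrays, at most 0.114 and 0.123. Osr1, a mesenchymal transcription factor, kept its fall there (-1.49, adjusted p = 0.0101), with 7.85 to 8.40 in DSS, 10.46 to 10.61 in series 11 controls and 9.36 and 9.86 in series 14 controls. Between the series themselves, 19 genes passed in limma among the wild-type chronic controls (2 higher and 17 lower in series 14, with 928 at an unadjusted p under 0.05), Hoxd12 and Hoxd10 among them. Ccn3 (adjusted p = 0.0861), Hoxd13 (0.11), Cdx2 (0.788), Osr1 (0.92) and Fabp2 (0.999) did not pass in that test. Over the 16 position genes 5 fell and 1 rose (31.2% and 6.25%, against 8.58% and 5.79% of all genes). The site sampled along the colon was not given in the sources used here. Its part in these values, and in those of Tgm3, Atp12a, Best2 and Insl5 given above, was not tested.

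Among the 43 marker and pathway lists, plasma cell markers had the largest share of members that rose. Of 13 measured markers 11 rose and 0 fell, with a median of 1.14, against -0.00 over all genes. Between 8 and 12 rose without any 1 array, and 3 did against the 2 series 14 controls only. Igha, the heavy chain of immunoglobulin A, had 12.44, 12.39, 13.56, 12.73 and 11.59 in DSS, against 9.25, 10.14, 8.62, 10.03 and 10.66 in controls (2.80 ± 0.57, 6.97-fold, adjusted p = 0.00101). Jchain, which joins the units of secreted IgA and IgM, had 11.94, 12.53, 12.82, 12.18 and 12.08 in DSS, against 9.35, 10.56, 9.81, 10.88 and 11.31 in controls (1.93 ± 0.39, adjusted p = 0.00081). Ighm, the IgM heavy chain, had 10.53, 12.61, 12.97, 11.96 and 11.23 in DSS, against 8.91, 10.12, 7.19, 9.52 and 10.02 in controls (2.71 ± 0.70, adjusted p = 0.00801). None of these 3 genes overlapped between the groups, and the controls of each spread over about 2 log2 units or more. The series 14 controls were the highest controls for Jchain.

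All 8 measured kappa variable segments rose, with a median of 2.77, and the segment with the largest difference lay at 9.53 to 12.22 in DSS and 6.38 to 8.17 in controls (3.59 ± 0.72, adjusted p = 0.00076). Such segments are close copies, so their probes may share signal. The intracellular markers rose too: Derl3, of endoplasmic reticulum degradation, by 1.55 ± 0.26 (9.12 to 10.84 in DSS, 7.96 to 8.55 in controls, adjusted p = 0.000136), Mzb1, the B1 and marginal zone protein, by 1.52 ± 0.30 (8.56 to 10.61 in DSS, 7.31 to 7.95 in controls, adjusted p = 0.000675), and Prdm1, the plasma cell transcription factor, by 1.28 ± 0.20 (8.25 to 9.0 in DSS, 7.17 to 7.55 in controls, adjusted p = 4.39e-05). Of 15 mature B cell markers 1, Ighm, passed, although all 15 differences were positive (0.21 to 2.71, median 0.74). Ms4a1, which encodes CD20, had 7.35, 8.23, 9.81, 8.55 and 8.90 in DSS, against 7.17, 8.34, 5.76, 8.45 and 6.92 in controls (1.24 ± 0.66, adjusted p = 0.231). The mean of the B cell list ran from 7.75 to 9.67 in DSS and from 6.86 to 8.41 in controls, so the groups overlapped.

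T cell and cytotoxic markers rose in 15 of 20 (75.0%, against 5.79% of all genes), with 0 lower and a median of 0.63. The list mean was 7.38, 7.76, 7.92, 7.32 and 7.48 in DSS, against 6.91, 7.01, 6.78, 6.98 and 6.87 in controls. Gzmb, the cytotoxic granule protease, lay at 7.08 to 7.90 in DSS and 5.79 to 6.27 in controls (1.44 ± 0.39, adjusted p = 0.0113). Cd3g, a chain of the T cell receptor complex, lay at 7.08 to 8.23 in DSS and 6.05 to 6.70 in controls (1.22 ± 0.25, adjusted p = 0.00106). Icos, a costimulatory receptor, lay at 7.64 to 8.52 in DSS and 6.81 to 7.08 in controls (0.99 ± 0.23, adjusted p = 0.00307), and Cd4 at 8.28 to 9.16 in DSS and 7.47 to 7.88 in controls (0.91 ± 0.24, adjusted p = 0.0088). DSS arrays 2 and 3 were the high ones for Cd3g and Cd4. Without any 1 array of the 10, between 9 and 15 of these markers passed. Against the 2 series 14 controls only, 0 of the 20 passed, in a fit with fewer arrays in which 207 genes rose in all, against 1154.

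Type I interferon stimulated genes rose in 11 of 22, with 0 lower and a median of 0.59. Between 8 and 14 rose without any 1 array, and 0 did against the 2 series 14 controls only. Their list mean was 8.83, 9.31, 9.10, 8.28 and 8.91 in DSS, against 8.09, 8.26, 8.31, 8.43 and 8.19 in controls, so DSS array 4 lay within the control range. Ifit1, an RNA-binding antiviral protein, showed that split with 9.81, 9.92, 9.44, 8.13 and 9.80 in DSS, against 7.37, 7.76, 7.62, 8.56 and 7.43 in controls (1.67 ± 0.37, adjusted p = 0.00206). Usp18, which trims ISG15 from proteins, was 7.89 in DSS array 4 and 9.11 to 9.67 in the other DSS arrays, against 7.68 to 8.17 in controls (1.22 ± 0.32, adjusted p = 0.00821). The class I and interferon gamma list had 2 of 19 members higher (10.5%) and 0 lower, and between 0 and 4 were higher without any 1 array. Cxcl9, an interferon gamma target that draws T cells, had 8.84, 10.17, 10.72, 7.87 and 7.95 in DSS, against 7.01 to 7.36 in controls (1.92 ± 0.57, adjusted p = 0.0209, and up to 0.0894 without DSS array 2 or 3).

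Mucosal mast cell proteases were higher in all DSS mice than in any control. Mcpt2 had 7.91, 9.63, 8.39, 10.26 and 7.72 in DSS, against 5.65 to 5.89 in controls (3.03 ± 0.47, 8.18-fold, adjusted p = 3.94e-05), and Mcpt1 had 7.56, 9.30, 7.70, 9.65 and 7.34 in DSS, against 5.68 to 5.83 in controls (2.59 ± 0.41, adjusted p = 6.24e-05). DSS arrays 2 and 4 were the high ones for both, over 1 log2 unit above DSS arrays 1, 3 and 5. Cpa3, the mast cell carboxypeptidase, had another order, with 8.55, 8.17, 6.60, 7.79 and 6.66 in DSS, against 5.77 to 6.12 in controls (1.65 ± 0.24, adjusted p = 2.2e-05). Of 13 mast cell markers 8 rose (61.5%, against 5.79% of all genes) and 0 fell. Without any 1 array 7 or 8 rose, and 6 did against the 2 series 14 controls only.

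**Figure D3:**
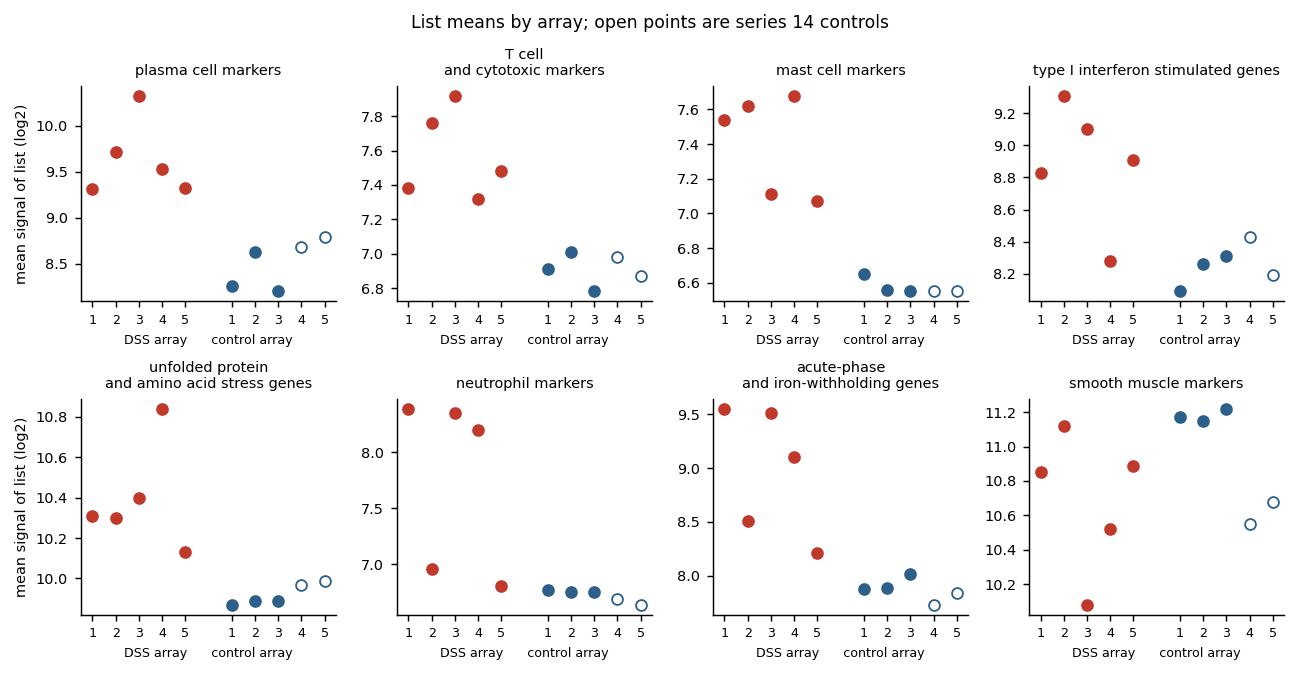
Mean log2 signal of 8 gene lists (y axis, own scale in each panel) in DSS arrays 1 to 5 (red) and control arrays 1 to 5 (blue; open points, series 14). Neutrophil and acute-phase lists are high in DSS arrays 1, 3 and 4, interferon genes are low in DSS array 4 among the DSS arrays, and plasma, T and mast cell lists lie above all controls in each DSS array.

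Neutrophil transcripts divided the DSS mice into 3 with and 2 nearly without them. The mean of 19 neutrophil markers was 8.39, 6.96, 8.35, 8.20 and 6.81 in DSS, against 6.77, 6.75, 6.75, 6.69 and 6.64 in controls. S100a8, a calprotectin subunit, had 9.24, 6.60, 8.99, 9.07 and 6.51 in DSS, against 5.95 to 6.43 in controls (1.84 ± 0.54, adjusted p = 0.0188), and Cxcr2, the receptor for neutrophil-attracting chemokines, had 7.96, 6.04, 8.29, 8.21 and 5.53 in DSS, against 5.09 to 5.35 in controls (1.95 ± 0.49, adjusted p = 0.00653). DSS arrays 2 and 5 lay just above the controls for both genes. Of the 19, 10 rose (52.6%, against 5.79% of all genes) and 0 fell. Between 4 and 13 rose without any 1 array, and 4 did in series 11 alone. The S100a8 call ended without DSS array 1, 3 or 4, with an adjusted p of up to 0.0665. Mpo and Ly6g, defining neutrophil genes, did not pass (0.25 ± 0.10 and -1.02 ± 0.59).

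The acute-phase and protease genes followed the same 3 mice. Saa3, an acute-phase serum amyloid, had 11.81, 8.82, 10.74, 10.10 and 7.90 in DSS, against 6.42 to 6.71 in controls (3.36 ± 0.63, adjusted p = 0.000377). Lcn2, which binds bacterial siderophores, had 11.86, 8.70, 11.15, 10.46 and 8.24 in DSS, against 7.65 to 8.14 in controls (2.15 ± 0.65, adjusted p = 0.0228, and up to 0.0881 without DSS array 1 or 3). Il1b, the inflammasome cytokine, had 10.42, 8.97, 10.25, 9.96 and 7.76 in DSS, against 6.44 to 7.30 in controls (2.50 ± 0.51, adjusted p = 0.00102). In all 3 genes DSS array 1 was highest and DSS array 5 lowest. Mmp10, a stromelysin, had 10.73, 8.35, 10.01, 9.87 and 7.74 in DSS, against 7.02 to 7.30 in controls (2.17 ± 0.55, adjusted p = 0.00673), and Mmp13, a collagenase, had 10.72, 8.38, 9.97, 9.96 and 7.89 in DSS, against 7.07 to 7.60 in controls (2.01 ± 0.61, adjusted p = 0.0249, and up to 0.084 without DSS array 1, 3 or 4). Of 24 metalloproteinase and ADAM genes 8 rose and 0 fell, 4 to 10 rose without any 1 array (4 without DSS array 1), and 3 rose without the series 14 controls. Mmp28, an epithelial metalloproteinase, was the even exception, with 9.62, 9.47, 9.59, 9.61 and 9.48 in DSS, against 8.28 to 8.68 in controls (1.06 ± 0.13, adjusted p = 2.31e-06).

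Timp1, the inhibitor of metalloproteinases that the study's knockout targets, had 9.27, 7.93, 8.91, 8.72 and 7.20 in DSS, against 7.28, 7.09, 7.07, 6.99 and 7.21 in controls. DSS array 5 lay within the control range. Timp1 rose by 1.28 ± 0.34 (adjusted p = 0.01), and series 11 alone gave 1.26 with an adjusted p of 0.059. Timp4 fell, with 6.79, 6.99, 8.09, 7.75 and 7.30 in DSS, against 8.36 to 9.08 in controls (-1.33 ± 0.25, adjusted p = 0.000396). Timp2 (-0.12 ± 0.15) and Timp3 (-0.43 ± 0.24) did not pass, although Timp3 lay at 10.62 to 11.06 in DSS and 11.21 to 11.64 in controls. Reck, a membrane-anchored inhibitor, fell by 0.48 ± 0.16 (adjusted p = 0.0409), a call that ended without any 1 of 8 arrays, at most 0.142 without DSS array 3.

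Matrix, myofibroblast and vessel lists had higher shares of members that rose than the 5.79% of all genes, and these shares rested on few arrays. The list of 24 genes of myofibroblasts and TGF-beta signalling had 6 higher and 1 lower, with 3 to 9 higher without any 1 array (3 without DSS array 1). Of 33 collagens and matrix proteins 5 rose and 1 fell, with a median of 0.14. Col1a1, a chain of type I collagen, lay at 11.07 to 11.94 in DSS and 10.69 to 11.06 in controls (0.67 ± 0.22, adjusted p = 0.0358), a call that ended without any 1 of 8 arrays, at most 0.0978 without DSS array 3. Col3a1 overlapped, at 10.46 to 11.15 in DSS and 10.34 to 10.77 in controls (adjusted p = 0.428). Lox, which crosslinks collagen, had 9.65, 8.44, 9.67, 9.14 and 7.58 in DSS, against 7.06 to 7.91 in controls (1.35 ± 0.44, adjusted p = 0.0358), and its call ended without any 1 of 7 arrays, at most 0.111 without DSS array 3. Without any 1 array between 1 and 6 matrix genes rose (1 without DSS array 1). Smooth muscle markers had a median of -0.15 with 2 of 18 lower (11.1%, against 8.58% of all genes). Their list mean was 10.85, 11.12, 10.08, 10.52 and 10.89 in DSS, against 11.17, 11.15 and 11.22 in series 11 controls and 10.55 and 10.68 in series 14 controls. Myh11, smooth muscle myosin, spanned 12.01 to 13.00 in DSS and 12.48 to 13.19 in controls (adjusted p = 0.475). The share of muscle RNA in a sample can move other genes, and its part in them was not tested. Of 18 endothelial markers 5 rose and 1 fell, with 1 to 6 higher without any 1 array (1 without DSS array 3, and 1 without the series 14 controls). Vcam1, an adhesion molecule of inflamed endothelium, had 8.86, 9.25, 9.74, 9.39 and 8.92 in DSS, against 8.13 to 8.40 in controls (0.95 ± 0.28, adjusted p = 0.0188, and 0.0667 without DSS array 3). Madcam1, which guides lymphocytes into the gut, had 8.19, 7.67, 8.83, 8.71 and 7.93 in DSS, against 7.12 to 7.60 in controls (0.88 ± 0.25, adjusted p = 0.0151, and 0.0622 without DSS array 3). The one that fell, Lyve1, of lymphatic vessels, did so with no overlap, at 9.13 to 9.55 in DSS and 10.09 to 10.55 in controls (-0.96 ± 0.24, adjusted p = 0.00573). Stmn2, of neurons, lay at 8.39 to 8.88 in DSS and 9.22 to 9.78 in controls (-0.80 ± 0.22, adjusted p = 0.0115).

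Genes of the unfolded protein and amino acid stress responses rose in 12 of 20, with 0 lower and a median of 0.45. Asns, asparagine synthetase, had 10.70, 10.59, 10.45, 11.02 and 9.97 in DSS, against 9.25 to 9.54 in controls (1.11 ± 0.21, adjusted p = 0.000351). Creld2, a protein of the endoplasmic reticulum, lay at 10.05 to 11.26 in DSS and 9.59 to 9.92 in controls (0.91 ± 0.17, adjusted p = 0.000351), and the chaperone Hspa5 at 11.95 to 12.83 in DSS and 11.63 to 11.84 in controls (0.56 ± 0.14, adjusted p = 0.00561). DSS array 4 was the highest for all 3. Chac1, which degrades glutathione, had 8.60, 8.68, 8.52, 10.15 and 8.24 in DSS, against 7.77 to 8.11 in controls (0.92 ± 0.20, adjusted p = 0.00217). Ddit3, the CHOP factor, reached 9.38 in DSS array 4, with 8.16 to 8.42 in the other DSS arrays and 8.11 to 8.46 in controls, and did not pass (adjusted p = 0.402). Several of these genes are also abundant in plasma cells, whose markers rose in the same mice, and their part in this list was not tested. Leaving out any 1 array left 9 to 13 of the 20.

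**Figure D4:**
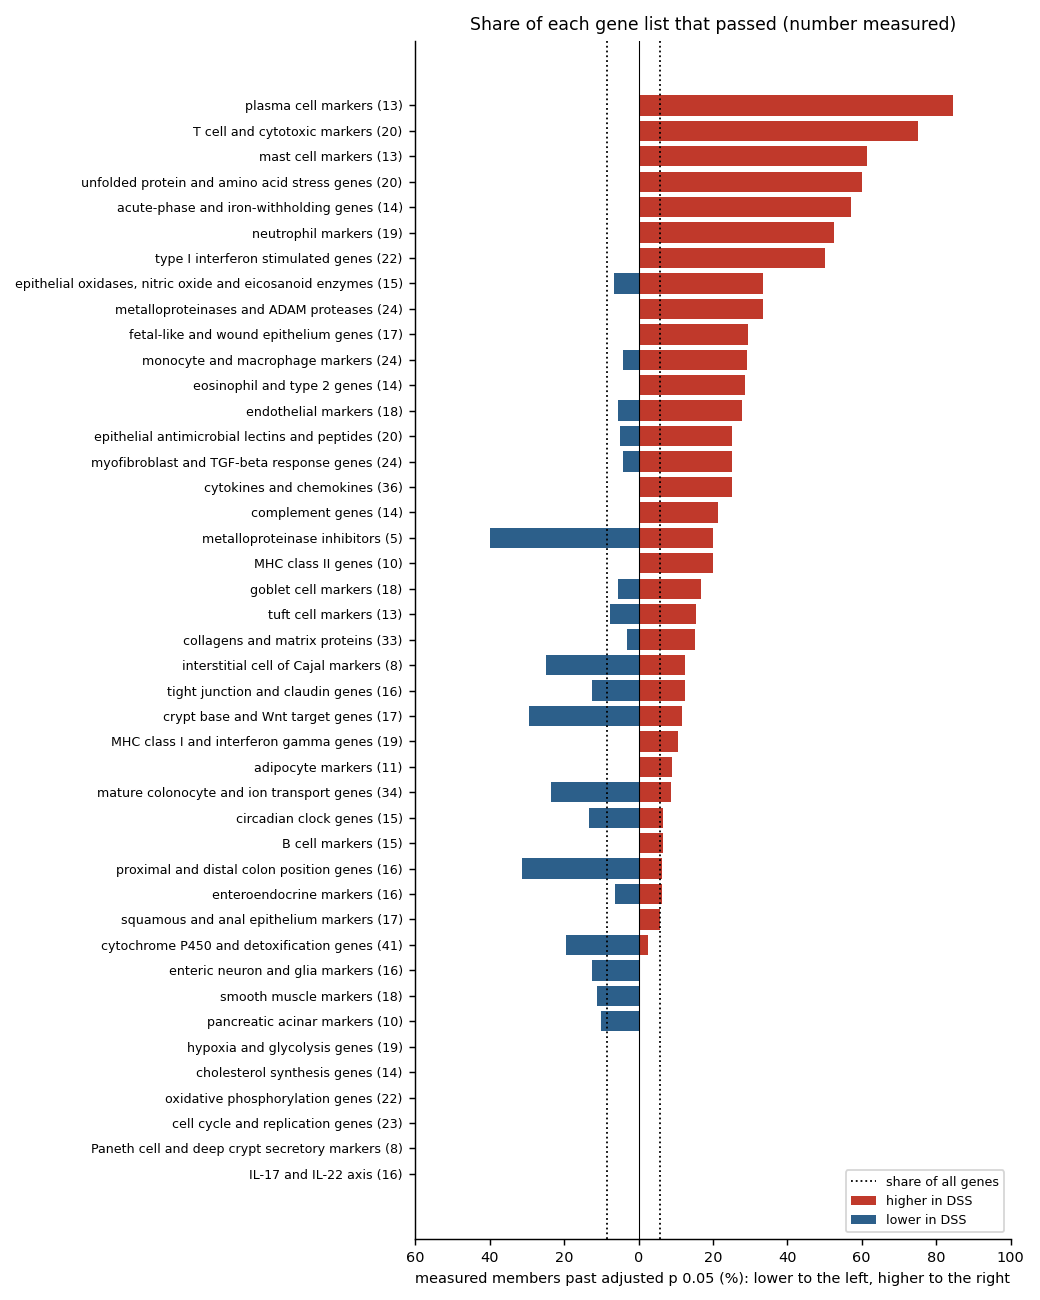
Share of the measured members of 43 gene lists that passed (limma, adjusted p under 0.05), to the right for members higher in DSS and to the left for members lower; dotted lines give the shares of all genes, 5.79% and 8.58%. Plasma cell markers reach 84.6% higher and T cell markers 75.0% higher, and 6 lists at the bottom have no member that passed.

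Some lists gave no calls. None of 22 oxidative phosphorylation genes, 14 cholesterol synthesis genes, 19 hypoxia and glycolysis genes, 16 genes of the interleukin 17 and 22 axis, 8 Paneth cell markers or 23 cell cycle genes passed in limma. At an unadjusted p under 0.05 the counts were 0, 1, 5, 1, 3 and 2 in that order, and the fit of the 10 arrays alone called 1, 2, 2, 2, 2 and 1. Among circadian genes, Nr1d1, the REV-ERBα repressor, fell with no overlap, at 10.52 to 11.41 in DSS and 11.60 to 12.57 in controls (-1.42 ± 0.29, adjusted p = 0.000964). Its list of 15 had 2 lower and 1 higher, or 13.3% and 6.67%, against 8.58% and 5.79% of all genes. Dbp, another clock output gene, had 9.86, 9.48, 9.38, 9.53 and 9.84 in DSS, against 9.70, 10.33, 11.12, 11.49 and 9.49 in controls (adjusted p = 0.144). The hour of sampling was not given in the sources used here.

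MicroRNA loci were measured as precursor transcripts, not as mature microRNAs. Of 272 loci, 3 were higher and 21 lower, which is 1.1% and 7.72% of them, against 5.79% and 8.58% of all genes. The lower share was near that of all genes and the higher share was below it. Some of the loci that fell are those of epithelial microRNAs, and the mature strands are shown to make clear which of them share a seed (bases 2 to 8, capitals; RefSeq, build GRCm38.p6).
miR-200b-3p: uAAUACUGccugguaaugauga
miR-200a-3p: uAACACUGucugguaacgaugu
miR-192-5p: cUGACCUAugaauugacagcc
miR-215-5p: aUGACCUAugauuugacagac
miR-194-5p: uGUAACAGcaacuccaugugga
The seed of miR-192 is that of miR-215, while miR-200a and miR-200b, which lie together on chromosome 4, have different seeds. Mir192, a locus typical of gut and liver epithelium, had 7.68, 7.49, 7.35, 8.36 and 8.01 in DSS, against 8.84 to 9.17 in controls (-1.18 ± 0.26, adjusted p = 0.00162). Mir194-2, beside it on chromosome 19, lay at 7.95 to 8.27 in DSS and 8.34 to 8.55 in controls (-0.30 ± 0.09, adjusted p = 0.0283), a call that ended without any 1 of DSS arrays 1 and 2 or controls 1 and 4 (up to 0.0821). Mir200b had 7.92, 8.53, 8.09, 9.34 and 8.50 in DSS, against 9.50 to 10.02 in controls (-1.29 ± 0.37, adjusted p = 0.017, and 0.0515 without DSS array 1). Mir200a lay at 7.34 to 8.22 in DSS and 8.25 to 8.69 in controls (-0.75 ± 0.19, adjusted p = 0.00595). Mir215 lay at 5.52 to 5.87 in DSS and 5.98 to 6.91 in controls (-0.55 ± 0.13, adjusted p = 0.00502). None of these 5 loci, which were picked after their values were seen, overlapped between the groups. Of all 272 loci, 19 lay below all controls, and of all genes 8.76% did. Related loci overlapped and did not pass: Mir194-1 (-0.23 ± 0.09, adjusted p = 0.0963), Mir200c (-0.25 ± 0.12, adjusted p = 0.194) and Mir141 (-0.30 ± 0.12, adjusted p = 0.0794).

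The chronic effect was set against the acute one in wild-type mice, whose arrays are separate from those of the chronic pair. The acute wild-type mice belong to neither series 11 nor series 14, so animal series and phase cannot be told apart here. The acute pair had more calls, 3863 higher (19.4%) and 4348 lower (21.8%). The difference of the 2 effects, tested in the same limma fit, passed for 3392 genes (17.0%), 1854 with a more positive and 1538 with a more negative chronic effect. Without the series 11 controls 1229 genes passed. The difference passed for 2 of 4 immunoglobulin constant and joining genes, Ighm and Jchain but not Igha, and for 4 of 8 kappa variable segments. In all of these that passed the chronic effect was the more positive. Ighm had effects of 2.71 ± 0.70 in chronic and -1.43 ± 0.81 in acute DSS (difference 4.14 ± 1.07, adjusted p = 0.0085), and Jchain of 1.93 ± 0.39 and -0.29 ± 0.44 (adjusted p = 0.01). Over the plasma cell list the median was 1.14 in chronic and 0.07 in acute DSS, with 11 and 2 of 13 members higher, and the difference passed for 6 of 13, all positive. Cd177 had 2.20 ± 0.30 in chronic and 0.08 ± 0.35 in acute DSS, and the difference passed (adjusted p = 0.0028).

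Several genes of the acute reaction had a smaller chronic effect by the same test. Saa3 had 3.36 ± 0.63 in chronic and 6.28 ± 0.72 in acute DSS (adjusted p of the difference 0.033), and haptoglobin (Hp) 2.08 ± 0.48 and 4.65 ± 0.55 (adjusted p = 0.016). Timp1 had 1.28 ± 0.34 and 3.12 ± 0.39 (adjusted p = 0.015). Of 33 matrix genes the difference passed for 18, all with the smaller chronic effect, and the list medians were 0.14 in chronic and 0.97 in acute DSS. Of 22 oxidative phosphorylation genes it passed for 18, all positive, with medians of -0.01 in chronic and -0.57 in acute DSS. Cldn1, a tight junction claudin, had effects of opposite sign, -1.05 ± 0.31 in chronic and 1.13 ± 0.36 in acute DSS (adjusted p of the difference 0.0029). Its chronic arrays lay at 6.61 to 6.83 in DSS, against 7.97 to 8.20 in series 11 controls and 7.35 and 7.37 in series 14 controls, and the chronic call ended without control 2 or 3 (up to 0.0623). For Mptx1 and Slc37a2, surface genes that fell, the difference did not pass. Mptx1 had -5.04 ± 0.92 in chronic and -7.29 ± 1.06 in acute DSS, with a difference of 2.25 ± 1.40 (adjusted p = 0.27). Slc37a2 had -3.93 ± 0.52 and -3.84 ± 0.60, with a difference of -0.09 ± 0.80 (adjusted p = 0.96).

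**Figure D5:**
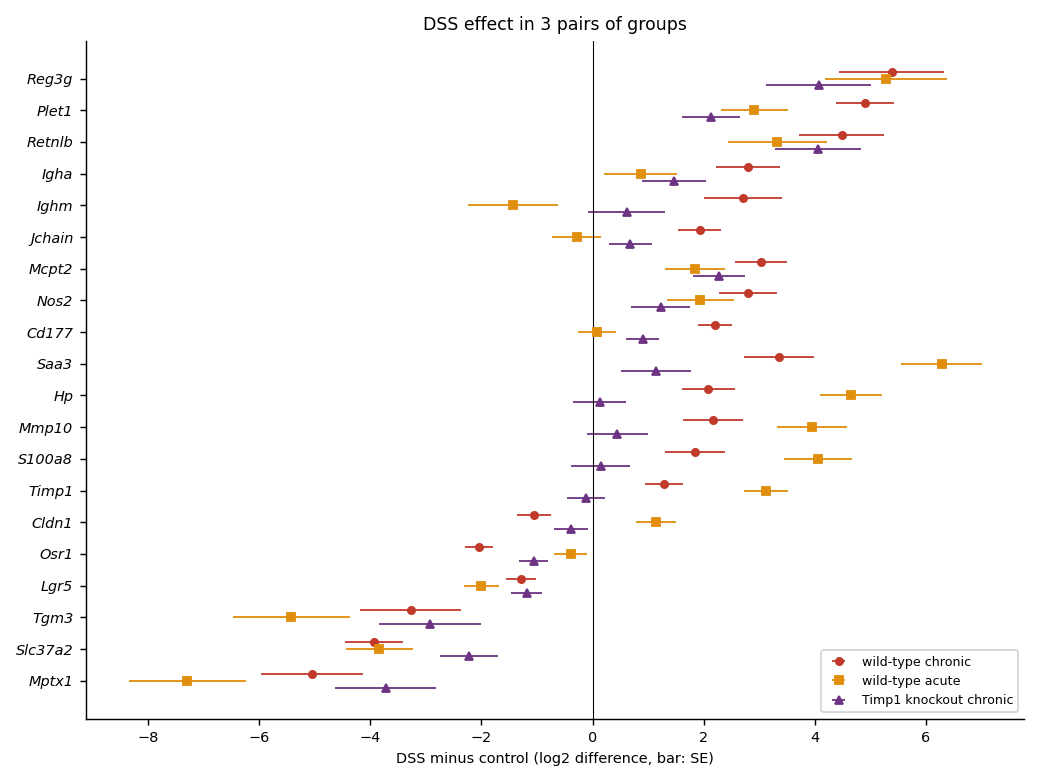
DSS minus control (log2 difference, x axis; bars, SE) of 20 genes in wild-type chronic (red circles), wild-type acute (orange squares) and Timp1 knockout chronic mice (purple triangles). Immunoglobulin genes lie furthest right in wild-type chronic mice, and Saa3, Hp, Mmp10, S100a8 and Timp1 in wild-type acute mice.

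Set against the chronic pair of the Timp1 knockout, which also shares no array, the wild-type effect was tested for each gene. The knockout pair had 492 calls higher (2.47%) and 1091 lower (5.47%), and the test of the difference passed for 84 genes (0.421%), 30 positive and 54 negative. That count was between 5 and 422 when any 1 of the 20 arrays was left out, so the genes named next rest on few arrays. Wild-type DSS mice and knockout mice came from different animal series (11 and 14), so series and genotype cannot be told apart here. The segment Igkv6-20 had 2.72 ± 0.52 in wild type and -0.47 ± 0.52 in the knockout (difference 3.19 ± 0.74, adjusted p = 0.045). Fkbp11, a plasma cell peptidyl-prolyl isomerase, had 0.62 ± 0.09 and -0.14 ± 0.09 (adjusted p = 0.01), and Mmp28 1.06 ± 0.13 and 0.27 ± 0.13 (adjusted p = 0.045). Slc25a36, a mitochondrial nucleotide carrier, had -1.24 ± 0.15 and -0.30 ± 0.15 (adjusted p = 0.035). Timp1 itself had 1.28 ± 0.34 and -0.11 ± 0.34, a difference that did not pass (adjusted p = 0.16), and neither did that of Reg3g, with 5.38 ± 0.95 and 4.07 ± 0.95 (adjusted p = 0.68). The neutrophil list had 10 of 19 members higher in wild type and 0 of 19 in the knockout, with medians of 1.15 and -0.02, and for 0 of 19 did the difference of effects pass.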

How the data were processed

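Colon RNA of 37 mice was hybridised to Affymetrix Mouse Gene 1.0 ST arrays, and each title carries its own animal number. The authors deposited log2 values made with RMA, per the submitters' processing notes. RMA corrects background, quantile-normalises arrays and summarises probes, so shifts shared by most genes are removed. That the log base is 2 was inferred from the value range (3.03 to 14.96) and was not stated. Array medians lay at 7.67 to 7.76.

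Of 35511 probe clusters, 21789 had 1 gene symbol in the platform annotation and were used, 1621 had several and 12101 were not listed. Where a gene had more than 1 cluster (999 genes), its brightest cluster by average signal was taken, giving 19938 genes. limma 3.58.1 in R 4.3.3 fitted the means of 8 groups over all 37 arrays (29 residual and 3.18 prior degrees of freedom), with Benjamini-Hochberg adjustment over all genes and a threshold of 0.05. Tests of chronic minus acute and of wild type minus knockout are contrasts of the same fit. P-values of this fit set each difference against a variance per gene pooled over the 8 groups, so acute and knockout mice enter it too. This pooled variance makes no allowance for DSS mice that varied more among themselves than controls. In simulated data with 200 shifted genes among 19938, the chronic comparison recovered 82% of log2 shifts of 0.5 and 98% of shifts of 1. Of its calls 5.47% were false. Each gene was drawn independently with the same spread in all groups, so these rates need not hold for mice that varied as the DSS mice did.

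The groups, the gene lists and the tests were chosen with earlier results of these data known. Named were the 15 largest differences in each direction that passed, the 3 members of each of 43 lists with the largest difference, Timp1 to Timp4 and Reck, and the 8 largest in each direction of each test of difference. Genes without an established symbol were counted and not named. Alpi, Aqp8, Car1, Cd177, Cd4, Cdx2, Clu, Col1a1, Col3a1, Ddit3, Hoxd10, Hoxd12, Hspa5, Ly6g, Mir192, Mir194-2, Mir200a, Mir200b, Mir215, Mpo, Muc2, Myh11, Mzb1, Prdm1, S100a8, Slc15a1, Slc20a1, Slc26a3, Tff3, Wfdc18 and Wfdc2 were named after their values were seen. Alternatives were other sets of arrays, array weights, cyclic loess, a trended and robust prior, a filter on dim genes, clusters tested separately and each array left out.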

Additional observations from a re-analysis of the deposited data

Results flagged for a closer look

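Dixon's test asked, in each group of 5 arrays, whether 1 array stood far from the rest for a gene named above. Over 220 such groups it picked out 20 arrays. The genes share the same arrays, and some were named after their values were seen. The test's rate of about 1 in 20 groups therefore cannot be set against this count. Of the 20 arrays picked out, 6 were DSS array 4, which was low for Plet1 (11.44) and Ifit1 (8.13) and high for Chac1 (10.15), Ddit3 (9.38), Slc20a1 (10.84) and Trpm6 (9.0). DSS array 3 accounted for 4, being low for Car1 (13.11) and Slc3a1 (8.02) and high for Clu (11.62) and Icos (8.52). DSS array 5 was low for Fkbp11 (7.38) and Timp3 (10.62). Control 3 accounted for 5, being low for Aqp8 (12.17), Slc37a2 (10.76) and Tgm3 (13.29) and high for Cyp2c65 (7.15) and Wfdc18 (8.51). Control 4 was high for Mcpt1 (5.83), and control 5 was high for Mir215 (6.91) and low for Nr1d1 (11.60).

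The chronic effect differed from the acute effect in wild-type mice, by the limma test of the difference, in 25 of the named genes. The chronic effect was the more positive for Ighm (difference 4.14 on the log2 scale), Ccn3 (2.54), Jchain (2.21), Cd177 (2.12), Cdx2 (1.81), Mzb1 (1.77), Derl3 (1.48), Creld2 (0.98), Cck (0.75), Mmp28 (0.58) and Fkbp11 (0.57). It was the more negative for Saa3 (-2.92), Hp (-2.57), Cldn1 (-2.19), Timp1 (-1.84), Nr1d1 (-1.78), Osr1 (-1.65), Stmn2 (-1.31), Hoxd12 (-1.26), Timp3 (-1.16), Col3a1 (-1.07), Col1a1 (-1.02), Timp2 (-0.96), Reck (-0.76) and Slc25a36 (-0.71). For Hoxd12, Osr1, Cdx2, Ccn3 and Cldn1 the controls of series 11 and series 14 lay apart, as given above.

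The wild-type chronic effect differed from that of the Timp1 knockout for Igkv6-20 (3.19), Mmp28 (0.79), Fkbp11 (0.77) and Slc25a36 (-0.94).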

How the results depend on the processing

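Over the alternatives run, the counts of genes that passed moved more than the directions. For higher genes, 1154 in the fit of all 37 arrays, the 10 arrays alone gave 1774, array weights 2194 and leaving out the series 11 controls 207. For lower genes, 1710 in that fit, array weights gave 2759 and leaving out the series 11 controls 336. That last setting, chosen after seeing the data, keeps 2 controls. It gave 1229 genes for chronic minus acute and 13 for wild type minus knockout, against 3392 and 84. The 84 became 146 without the dimmest genes, 189 with every cluster tested separately, 171 with cyclic loess and 1832 with array weights. Leaving out 1 array gave 761 to 1168 higher genes (lowest without DSS array 3), 1261 to 1667 lower genes, 1937 to 4305 genes for chronic minus acute (lowest without acute control 3) and 5 to 422 for wild type minus knockout. Of 93 named genes that passed, 35 stayed past the threshold in every alternative, and only Ccn3 changed sign, to -0.0025 without the series 11 controls. The causes of these moves were not tested beyond the number of arrays each setting keeps. No paired analysis was possible because the replicate numbers follow accession order and pair no animals. An alternative without arrays that carry Y-linked signal was not run, since 0 of the 2 such arrays are in the groups compared. The number of arrays limits the precision.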
